A study of Mus musculus with 10 samples.

Results

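Ribosome assembly genes were followed in mouse hepatic stellate cells given amphiregulin (Areg), a growth factor that binds and activates the EGF receptor. The set holds 42 named genes whose products transcribe ribosomal RNA, modify and cleave it, or build the ribosomal subunits in the nucleolus. They were taken by name from 36047 genes with a matched transcript, and all 42 were among the 13362 genes that passed the filter on low counts. By role, 4 act in RNA polymerase I transcription, 9 belong to small nucleolar ribonucleoproteins (snoRNPs), 15 act on the small subunit, 10 on the large subunit, and 4 have several nucleolar roles.

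Treated cultures held recombinant mouse Areg at 500 ng/mL for 4 h, and the control cultures were kept without it for the same time. Cells of both groups were described as quiescent stellate cells from the livers of male C57BL/6 mice, were first cultured for 5 h, and spent the treatment period in starving medium. Each group had 5 libraries of poly-A RNA, numbered 1 to 5. Separate mice or cultures behind them are not stated in the labels, and every p-value here rests on the spread between libraries alone, which may be technical.

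Ribosomes are assembled around ribosomal RNA that polymerase I makes in the nucleolus as one long precursor. Box C/D and box H/ACA snoRNPs guide its methylation and pseudouridylation, the small-subunit processome folds and cuts it, and separate particles then mature the small and the large subunit. Growth factors raise this output in many cell types, and Myc is a well known transcriptional activator of the genes. Stellate cells store vitamin A in the liver, and when activated they turn into myofibroblasts that secrete large amounts of matrix.

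The libraries held 14365027 to 20057962 estimated counts in the Areg group and 10125184 to 17566891 in the control group. Controls 3 and 4 had the fewest, 10125184 and 10950603. On the first principal component controls 3 and 4 lay at 38.9 and 25.0, away from the other 8 libraries at -14.3 to 0.8. Fold changes over all tested genes also ran with GC content. A fit without controls 3 and 4 and a fit with the length and GC trend removed were therefore run. They are given beside a gene of the set where they change its call or sign or move it by over 1.5 times. The 10 stellate cell markers, among them Lrat, Des and Dcn, were all detected and summed to 7175 to 7487 CPM (counts scaled to a common library total) in Areg libraries, against 7421 to 7671 CPM in controls. Dcn alone held 5099 to 5437 CPM in Areg libraries and 4850 to 5467 CPM in controls. Lrat, Ngfr and Cygb were lower in every Areg library than in any control, which held for 7.06% of all tested genes. The other stellate markers overlapped between the groups. Hepatocyte markers summed to 1161 to 1441 CPM in Areg libraries and 1023 to 1738 CPM in controls, the highest being control 3. The endothelial list reached 2814 to 2937 CPM in Areg libraries and 2776 to 2848 CPM in controls, and the Kupffer cell list 294.8 to 316.8 CPM in Areg libraries and 289 to 338 CPM in controls. Cholangiocyte markers summed to 1.56 to 2.1 CPM in Areg libraries and 1.52 to 5.15 CPM in controls, and lymphocyte markers to 1.18 to 1.59 CPM in Areg libraries and 0.558 to 2.69 CPM in controls. Of these lists, 3 of the 10 stellate markers and 1 of the 8 hepatocyte markers were called lower with Areg, and no listed marker was at 0 in all libraries. The part of these other cells in the results was not tested. In bulk libraries, fewer cells of a type and less RNA per cell cannot be told apart.

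Areg-treated cells held more transcripts of 22 of the 42 genes, and no gene of the set fell. Risers were found at every stage: Rrn3 in polymerase I transcription, Dkc1, Nop58 and Nhp2 in the snoRNPs, Wdr43, Tsr1 and Ltv1 on the small subunit, Noc3l and Nop2 on the large subunit, and the abundant nucleolar proteins nucleophosmin (Npm1) and nucleolin (Ncl). The changes were small, from 1.10-fold for Heatr1 to 1.38-fold for Nop58, with a median of 0.27 on the log2 scale among the genes that rose. A call means an adjusted p under 0.05 in edgeR's quasi-likelihood test, with Benjamini-Hochberg adjustment over all 13362 genes. The 22 rises are 52.4% of the set, beside 8.34% of all tested genes called higher and 8.32% called lower. Among the 6285 genes at least as abundant as the least abundant gene of the set, 14.2% were called higher. At an unadjusted p under 0.05 edgeR gave 29 genes of the set higher and 0 lower, beside 15.6% of all tested genes higher and 15.8% lower at that threshold. Of the 6285 genes, 1535 were higher and 1185 lower at that threshold. DESeq2 called 25 higher and 0 lower, beside 10% of all tested genes called higher by DESeq2.

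Across the set the median log2 fold change was 0.17, with a range of -0.06 to 0.46, beside -0.01 over all tested genes. The fold change was positive for 39 of the 42 genes, beside 48.7% of all tested genes. In 21 genes every Areg library lay above every control, which held for 7.64% of all tested genes. Of the 6285 genes at least as abundant as the least abundant gene of the set, 3459 had a positive fold change. In 13.3% of those 6285, every Areg library lay above every control. No gene of the set had every Areg library below every control, which held for 7.06% of all tested genes. Without controls 3 and 4, 25 of the 42 were called higher, 20 of them also with all 10 libraries, beside 8.38% of all tested genes. With the length and GC trend removed, 29 were called higher, 20 of them also in the test with the trend left in, beside 7.77% of all tested genes. On log2(TPM + 1) values, limma called 6 of the 42 higher, beside 2.41% of all tested genes. These were Nop58, Nhp2, Npm1, Ncl, Ddx21 and Rrp9, so 17 of the 22 calls were lost on that scale. There limma called 0 of 4 polymerase I genes, 0 of 15 small-subunit genes and 0 of 10 large-subunit genes.

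**Figure D1:**
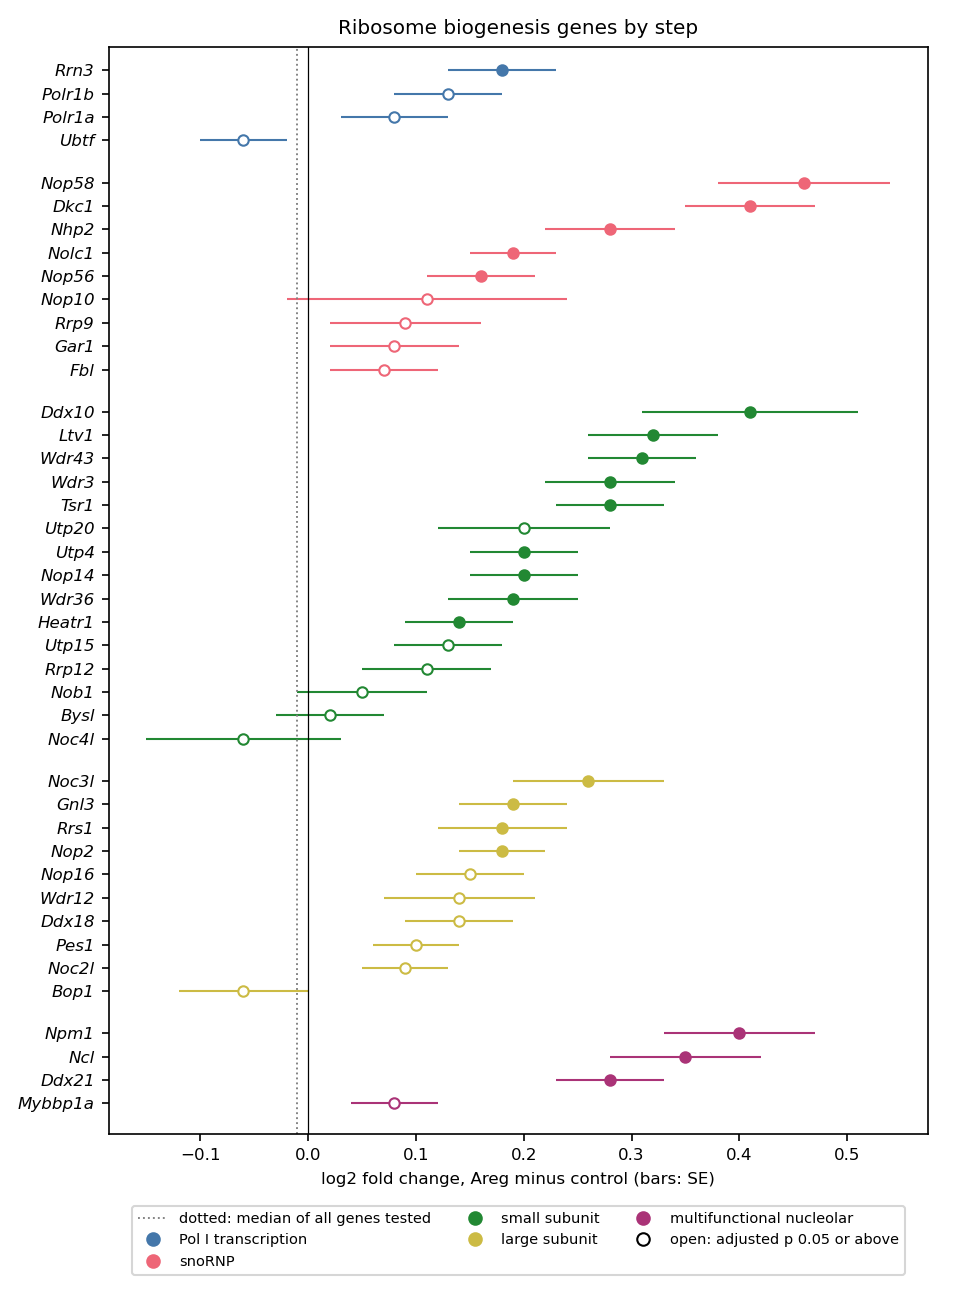
Log2 fold change of each of the 42 genes (Areg over control, edgeR, 5 libraries each), grouped by step, with the SE as bars. Filled points are genes called higher, open points missed the threshold, and the dotted line is the median of all genes tested. The values run from -0.06 to 0.46, and 39 lie above 0.

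Promoter stretches are shown first for genes that carry the E-box CACGTG, the site that Myc and related factors bind, because several of the genes described next hold one near the start. The letters searched were CACGTG, which reads the same on both strands, from 250 bases before to 50 bases after each RefSeq start on GRCm38.p6. An E-box was present in 9 of the 36 genes with a promoter entry (25%), beside 1157 of 10185 tested genes (11.4%). Upstream of the start alone, 2 of 36 genes held one (5.56%), beside 9.55% of tested genes. The sequences are written 5′ to 3′ along the gene's strand, with the E-box in capitals.
Wdr43 (chr17:71616220-71616249, plus strand): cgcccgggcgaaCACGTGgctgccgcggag
Tsr1 (chr11:74898092-74898121, plus strand): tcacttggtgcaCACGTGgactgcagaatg
Ltv1 (chr10:13193092-13193121, minus strand): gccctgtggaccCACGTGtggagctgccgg
Utp4 (chr8:106893643-106893672, plus strand): tgcgcaagcgcgCACGTGgggccggggcgg
Nop2 (chr6:125131786-125131865, plus strand): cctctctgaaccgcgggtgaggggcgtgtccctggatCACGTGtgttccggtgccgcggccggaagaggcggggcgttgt
Rrn3, distal site (chr16:13780449-13780526, plus strand): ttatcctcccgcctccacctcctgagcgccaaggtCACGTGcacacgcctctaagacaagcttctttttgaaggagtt
Rrn3, proximal site (chr16:13780614-13780693, plus strand): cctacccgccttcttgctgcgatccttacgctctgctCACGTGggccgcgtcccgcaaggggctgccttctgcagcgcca
Pes1 (chr11:3963965-3963994, plus strand): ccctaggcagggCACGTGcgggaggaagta

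Counted from 1 at the start base, the first base of the E-box was at position 18 in Wdr43, 25 in Tsr1, 29 in Ltv1 and 16 in Utp4, inside the transcribed stretch. Nop2 had its site at -60 and Rrn3 had sites at -215 and -48, before the start. These 6 genes all rose, and they are 31.6% of the 19 genes that rose and have a promoter entry. Of all genes called higher, 13.2% held an E-box. Upstream of the start alone, 2 of the 19 held one (10.5%), beside 10.2% of all genes called higher. Among the 17 that missed the threshold and have an entry, 3 held an E-box (17.6%): Pes1 at position 3, Utp20 at 38 and Mybbp1a at 41. A match is a stretch of letters and not a measured binding site.

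In polymerase I transcription, 1 of 4 genes rose, and the median log2 fold change was 0.10. Rrn3 (chr16:13780708-13814839, plus strand, GRCm38) encodes the initiation factor that links polymerase I to the promoter and carries growth signals to it, and it holds the E-box pair printed above. It reached 95.3, 95.7, 96.7, 104 and 97.4 CPM in Areg libraries 1 to 5, against 90.5, 85.8, 83.9, 85.5 and 86.6 CPM in controls 1 to 5. Every Areg library lay above every control, by the least between Areg 1 and control 1. The means were 97.8 ± 3.37 CPM with Areg and 86.5 ± 2.45 CPM in controls (SD, n = 5 each), a log2 difference of 0.18 (SE 0.05, edgeR adjusted p = 0.0146), and 0.12 with the GC trend removed, still called. On log2(TPM + 1) values Rrn3 came to 0.14 and lost its call (limma adjusted p = 0.187).

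Polr1b, one of the large catalytic subunits of the enzyme, gave 57.5, 55.2, 60.3, 56.9 and 57.5 CPM in Areg libraries, against 53.0, 55.1, 50.3, 53.0 and 52.0 CPM in controls. The groups did not overlap, although Areg 2 and control 2 nearly met, and the log2 fold change of 0.13 missed the threshold (95% interval 0.02 to 0.23, edgeR adjusted p = 0.0929). Polr1a, the largest subunit, had overlapping groups and a log2 fold change of 0.08 (95% interval -0.03 to 0.18). Ubtf, the factor that binds ribosomal DNA and opens it for the polymerase, had -0.06 (95% interval -0.15 to 0.03), which turned to 0.06 with the GC trend removed (adjusted p = 0.292). Without the GC trend, Polr1a and Polr1b passed the threshold (edgeR adjusted p = 0.0423 and 0.0216), so that 3 of the 4 were called higher. On log2(TPM + 1) values limma called 0 of the 4, with a median of -0.01 and Polr1b at -0.02 (limma adjusted p = 0.899).

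Among snoRNP genes 5 of 9 rose, with a median log2 fold change of 0.16. Dkc1 (chrX:75095854-75109777, plus strand) encodes dyskerin, the pseudouridine synthase of box H/ACA particles. It gave 98.7, 111, 96.1, 107 and 110.4 CPM in Areg libraries, against 75.4, 83.3, 71.99, 85.9 and 78.1 CPM in controls. The lowest Areg library, number 3, was still above the highest control, number 4. Dkc1 averaged 105 ± 6.87 CPM with Areg and 78.9 ± 5.67 CPM in controls, a log2 difference of 0.41 (SE 0.06, edgeR adjusted p = 0.000362), the smallest adjusted p of the set.

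Nhp2 (chr11:51619735-51623714, plus strand), another core protein of the box H/ACA particle, gave 67.1, 76.1, 72.2, 67.2 and 71.6 CPM in Areg libraries, against 50.9, 63.0, 59.6, 59.5 and 58.6 CPM in controls. All Areg libraries were above all controls, and control 1 was the lowest. The log2 fold change was 0.28 (SE 0.06, edgeR adjusted p = 0.00547). The remaining proteins of this particle missed the threshold, Nop10 at a log2 fold change of 0.11 (95% interval -0.16 to 0.38) and Gar1 at 0.08 (95% interval -0.04 to 0.20), which came to 0.14 without controls 3 and 4 and to 0.02 with the GC trend removed. Nop10 had 26.9 to 31.4 CPM in Areg libraries and 19.4 to 34.6 CPM in controls, with controls 3 and 4 the highest of all, and without those controls it was called higher at 0.33 (edgeR adjusted p = 0.0129). Without control 1 the log2 fold change of Nop10 was 0.00, and with the GC trend removed it was -0.00.

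Nop58 (chr1:59684971-59719044, plus strand), a core protein of box C/D particles, had the largest fold change of the set with all 10 libraries and the GC trend left in. It gave 293, 336, 295, 323 and 321 CPM in Areg libraries, against 229, 255, 177, 224 and 254 CPM in controls. The groups were well separated, and control 3 lay far below the other controls. The means were 314 ± 19.1 CPM with Areg and 228 ± 31.8 CPM in controls, a log2 difference of 0.46 (SE 0.08, edgeR adjusted p = 0.00224). It was still called, at 0.35 without controls 3 and 4, at 0.26 with the GC trend removed and at 0.18 with both. Dkc1, at 0.41, was then above it without controls 3 and 4, and Nhp2, Ddx10, Dkc1 and Nop2, at 0.32, 0.30, 0.29 and 0.29, with the trend removed. Its partner Nop56 rose less, with a log2 fold change of 0.16 (edgeR adjusted p = 0.0264), which missed the threshold without any one of Areg 2, 3, 4 or 5 (edgeR adjusted p = 0.0751, 0.0516, 0.0552 and 0.0576). Fbl, the methyltransferase of the same particle, had 0.07 (95% interval -0.04 to 0.18). Rrp9, the protein specific to the particle that is needed for cutting the precursor, had 0.09 (95% interval -0.05 to 0.23). Nolc1, a chaperone of both kinds of particle, rose by a log2 fold change of 0.19 (edgeR adjusted p = 0.00953). Fbl and Rrp9 had high-GC transcripts, and both were called higher with the GC trend removed, at 0.17 and 0.22 (edgeR adjusted p = 0.00206 and 0.00605). Fbl was also called without controls 3 and 4, at 0.14 (edgeR adjusted p = 0.0232), where Rrp9 had 0.15 (adjusted p = 0.109).

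The small-subunit genes held 9 risers of 15, with a median log2 fold change of 0.20. In the subcomplex that joins the precursor first and couples its transcription to processing (UTP-A), Heatr1, Utp4 and Wdr43 rose and Utp15 did not pass. Wdr43 (chr17:71615895-71659031, plus strand) gave 214, 225, 224, 232 and 230.2 CPM in Areg libraries, against 181, 194, 164, 173 and 196 CPM in controls. The lowest Areg library exceeded the highest control, and controls 3 and 4 were the lowest of their group. The log2 fold change was 0.31 (SE 0.05, edgeR adjusted p = 0.000902), which came to 0.20 with the GC trend removed and stayed called. Utp4 rose by 0.20 (edgeR adjusted p = 0.0132), with 0.18 and an adjusted p of 0.0512 when Areg 2 was left out. Heatr1 sat at the threshold with 0.14 (edgeR adjusted p = 0.0499) and overlapping groups. It was not called in 15 of the 22 alternatives, among them without any one of Areg 1 to 5 or of controls 3, 4 and 5, with adjusted p of 0.0535 to 0.116. Without controls 3 and 4 together Heatr1 had 0.10 (adjusted p = 0.0989). Utp15 had 0.13 (95% interval 0.02 to 0.23, edgeR adjusted p = 0.102), passed at 0.16 without control 2 (adjusted p = 0.047), and came to 0.05 with the GC trend removed.

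Of the second assembly module of the processome, Wdr3 rose by a log2 fold change of 0.28 (edgeR adjusted p = 0.00508). Wdr36 rose by 0.19 (edgeR adjusted p = 0.0297) with overlapping groups. Its call was lost without any one of Areg 2, 3, 4 or 5 or of control 5 (adjusted p from 0.0578 to 0.0947), and at 0.10 with the GC trend removed (adjusted p = 0.156). Ddx10, an RNA helicase, rose by 0.41 on the log2 scale (SE 0.10, edgeR adjusted p = 0.0132). Its mean was 85.2 ± 4.67 CPM with Areg and 64.0 ± 11.1 CPM in controls, where control 3 was far down at 45.8 CPM. Without controls 3 and 4 its fold change came to 0.26 and it was still called. Nop14 rose by 0.20 (edgeR adjusted p = 0.00715), whereas Noc4l, its binding partner, had -0.06 (95% interval -0.26 to 0.13), which turned to 0.09 without controls 3 and 4 and to 0.05 with the GC trend removed.

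Ltv1 (chr10:13178140-13193168, minus strand), a late assembly factor of the small subunit, gave 82.5, 87.9, 78.6, 88.0 and 87.3 CPM in Areg libraries, against 64.9, 73.3, 59.9, 67.0 and 74.9 CPM in controls. The groups did not overlap, and library 3 was the lowest in each. Ltv1 rose by 0.32 on the log2 scale (SE 0.06, edgeR adjusted p = 0.00284). Tsr1 (chr11:74898071-74909342, plus strand), a GTPase-like protein of the same late particle, gave 153, 158, 164, 149 and 152 CPM in Areg libraries, against 134, 136, 113, 121 and 133 CPM in controls. All Areg libraries again lay above all controls, with controls 3 and 4 lowest, and the log2 fold change was 0.28 (SE 0.05, edgeR adjusted p = 0.00224). On log2(TPM + 1) values Tsr1 came to 0.12 (limma adjusted p = 0.409). Of Tsr1's stretches of 31 bases, 33.2% also occur in other genes. The genes that missed the threshold here included Nob1, the endonuclease that makes the final cut of small-subunit RNA, at 0.05 (95% interval -0.07 to 0.18), and Bysl at 0.02 (95% interval -0.09 to 0.13). Nob1 and Bysl came to 0.13 and 0.05 without controls 3 and 4, and to 0.09 and 0.12 with the GC trend removed, uncalled in both fits.

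Utp20 and Rrp12 had 0.20 and 0.11 with edgeR adjusted p of 0.106 and 0.195, and their calls depended on the fit. Rrp12, which acts in subunit export in yeast, was called higher at 0.18 without controls 3 and 4 (edgeR adjusted p = 0.0199), at 0.26 with the GC trend removed (0.000565) and at 0.29 with both (0.000193). Utp20 was called at 0.20 with the GC trend removed (edgeR adjusted p = 0.0149), at 0.14 with both (0.0219), and at 0.26 without control 1 (0.0271). It came to 0.13 without control 3 and to 0.09 without controls 3 and 4, uncalled.

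Among large-subunit genes 4 of 10 rose, with a median log2 fold change of 0.15. Whether the steps differed from each other was not tested. Nop2 (chr6:125131909-125144753, plus strand), a methyltransferase of large-subunit RNA, gave 158, 167, 160.1, 163 and 161 CPM in Areg libraries, against 135, 141, 145, 151 and 143 CPM in controls. The groups did not overlap, and the Areg libraries were close together. The log2 fold change was 0.18 (SE 0.04, edgeR adjusted p = 0.00952), and 0.29 with the GC trend removed. Noc3l (chr19:38788128-38819237, minus strand), which takes part in early large-subunit particles in yeast, gave 79.3, 83.1, 82.0, 86.5 and 80.2 CPM in Areg libraries, against 63.5, 79.3, 60.3, 68.2 and 70.6 CPM in controls. Areg 1 and control 2 were almost level, and the log2 fold change was 0.26 (SE 0.07, edgeR adjusted p = 0.0111). It came to 0.17 with the GC trend removed, still called, and to 0.19 with controls 3 and 4 left out as well, where the call was lost (adjusted p = 0.0539).

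Gnl3 (chr14:31012433-31019152, minus strand) encodes nucleostemin, a nucleolar GTPase of proliferating cells. It gave 279, 297, 284, 284 and 283 CPM in Areg libraries, against 246, 258, 225, 254 and 271 CPM in controls. All Areg libraries were above all controls, and the log2 fold change was 0.19 (SE 0.05, edgeR adjusted p = 0.016). Gnl3 came to 0.04 with the GC trend removed (adjusted p = 0.432), and to 0.17 with an adjusted p of 0.0554 without Areg 2. Rrs1, which helps place the smallest ribosomal RNA in the large subunit, rose by 0.18 (edgeR adjusted p = 0.0339) with overlapping groups. The Rrs1 call was lost without any one of Areg 2, 3 or 5 or of controls 1 and 4, with adjusted p of 0.0576 to 0.109, and without controls 3 and 4 together (0.15, adjusted p = 0.0542).

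The PeBoW complex, which is needed for cleavage of the precursor on the large-subunit side, had no called gene in edgeR or in DESeq2. Pes1 had a log2 fold change of 0.10 (edgeR adjusted p = 0.141, unadjusted p = 0.0414), Wdr12 had 0.14 (95% interval -0.00 to 0.29, adjusted p = 0.161) and Bop1 had -0.06 (95% interval -0.19 to 0.07). Bop1 came to -0.01 without control 4, to 0.03 without controls 3 and 4, and to 0.11 with the GC trend removed (adjusted p = 0.118). Wdr12 came to 0.07 without controls 3 and 4 and to 0.04 with the GC trend removed. Nop16, Ddx18 and Noc2l had log2 fold changes of 0.15, 0.14 and 0.09 and adjusted p of 0.0585, 0.069 and 0.125. DESeq2 called all 3 of them higher (adjusted p = 0.031, 0.0363 and 0.0492), and edgeR called Nop16 at 0.17 without control 5 (adjusted p = 0.0462). In the fit without controls 3 and 4 edgeR called Ddx18 at 0.17 and Noc2l at 0.12 (adjusted p = 0.0215 and 0.0285). With the GC trend removed it called Noc2l at 0.23 and Nop16 at 0.16 (adjusted p = 9.66e-05 and 0.0247), while Ddx18 came to 0.08. In Ddx18, an RNA helicase, 65.5% of the stretches of 31 bases occur in other genes as well, so its level is uncertain. With the counts of its near-identical pseudogene added, Ddx18 stayed at 0.14 (edgeR adjusted p = 0.0673). In Pes1 the share of such stretches was 34.8%.

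Of the 4 genes with several nucleolar roles 3 rose, with a median log2 fold change of 0.31. Npm1 (chr11:33152287-33163206, minus strand), the histone and ribosomal protein chaperone nucleophosmin, gave 816, 873, 792, 854 and 866 CPM in Areg libraries, against 621, 718, 528, 590 and 719 CPM in controls. The groups did not overlap, and controls 3 and 4 were the lowest. The means were 840 ± 35.0 CPM with Areg and 635 ± 83.3 CPM in controls, a log2 difference of 0.40 (SE 0.07, edgeR adjusted p = 0.0019). It was 0.29 without controls 3 and 4, 0.24 with the GC trend removed and 0.17 with both, and Npm1 was called in each of these fits. Near-identical processed pseudogenes held at most 0.0957% of a member's CPM, and adding their counts left Npm1 at 0.40.

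Ncl (chr1:86344719-86359400, minus strand), nucleolin, which acts in both transcription and processing of ribosomal RNA, gave 1736, 1865, 1737, 1868 and 1844 CPM in Areg libraries, against 1510, 1549, 1175, 1324 and 1557 CPM in controls. Again all Areg libraries were higher than all controls, and control 3 was the lowest library. Ncl rose by 0.35 on the log2 scale (SE 0.07, edgeR adjusted p = 0.00318), and by 0.24 without controls 3 and 4, 0.25 with the GC trend removed and 0.20 with both. Ddx21 (chr10:62580251-62602281, minus strand), a helicase that couples polymerase I transcription to RNA processing, gave 563, 599, 589, 597 and 594 CPM in Areg libraries, against 502, 508, 447, 468 and 503 CPM in controls. The groups stood clear of each other, with Areg 1 below its own group. The log2 fold change was 0.28 (SE 0.05, edgeR adjusted p = 0.0011). Mybbp1a, a Myb-binding nucleolar protein, had 0.08 (edgeR adjusted p = 0.198), and was called higher at 0.18 with the GC trend removed (adjusted p = 0.000627).

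**Figure D2:**
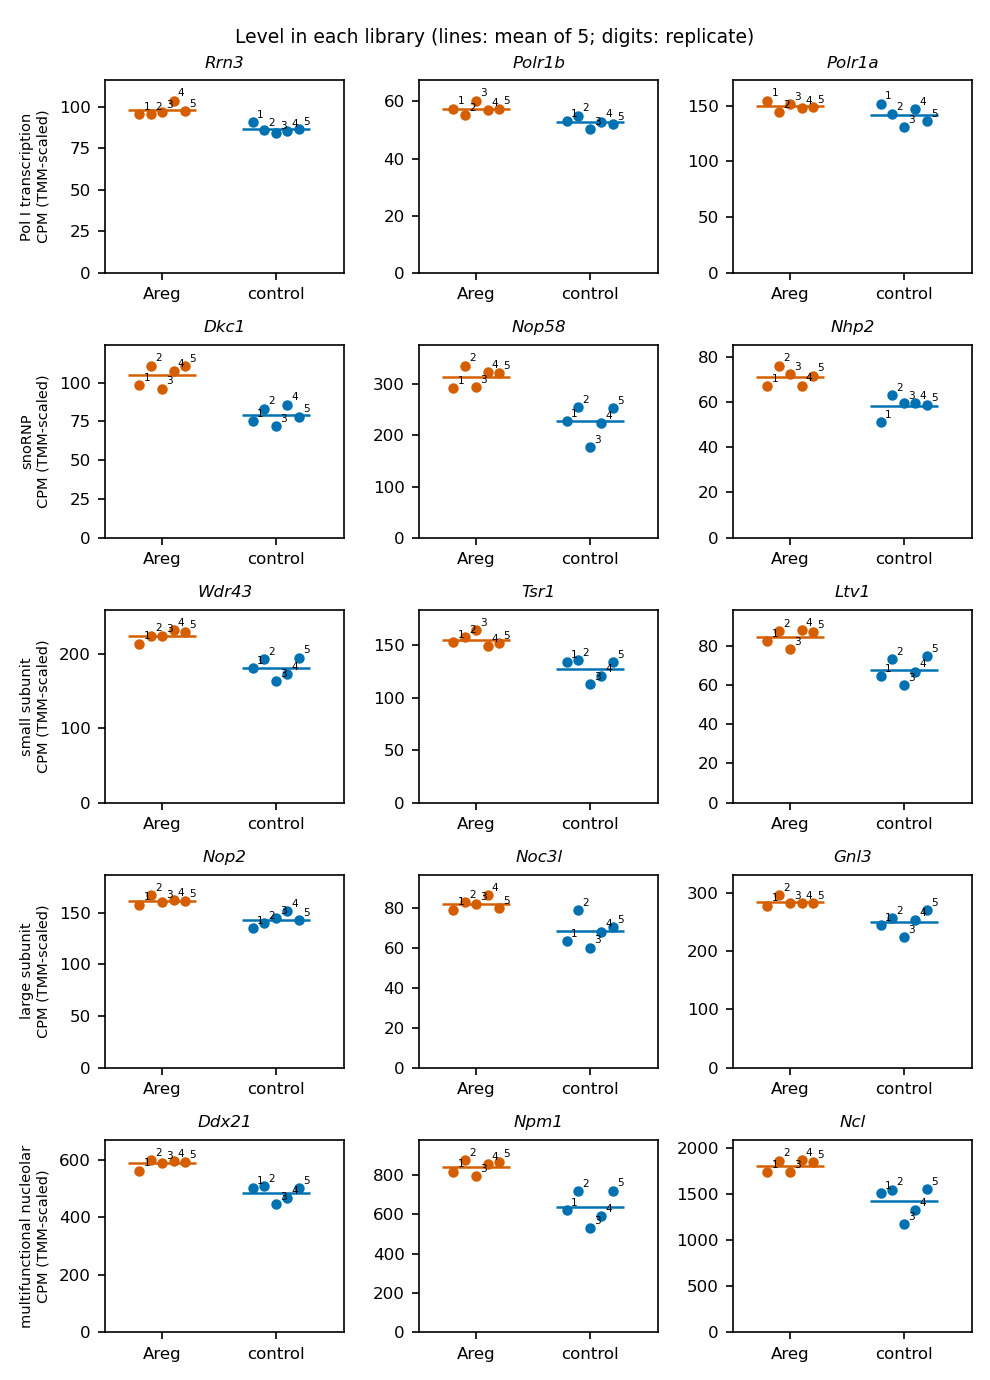
CPM in each of the 5 Areg and 5 control libraries for the 3 genes of each step with the smallest p in edgeR. Points are libraries and lines are means of 5. The groups do not overlap for the genes shown except Polr1a.

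By its median, the set was higher in each Areg library than in any control. The median deviation of the 42 genes from their mean over controls was 0.13 to 0.20 on the log2 scale in Areg libraries, against -0.05 to 0.06 in controls. Summed over the set, CPM averaged 8458 ± 191 in Areg libraries and 7173 ± 379 in controls (SD, n = 5 each). Control 3 had the lowest medians for the small-subunit genes, at -0.11, and for the genes with several nucleolar roles, at -0.19.

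**Figure D3:**
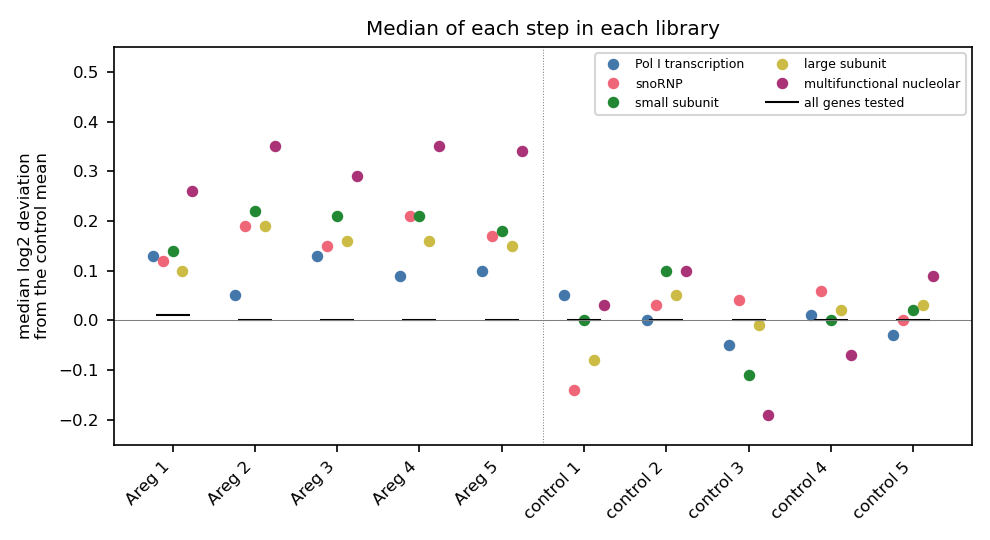
Median log2 deviation from the mean over controls in each library, for the genes of each step, with Areg libraries left of controls. Points are steps and short lines are the median of all genes tested, which stays near 0. The genes with several nucleolar roles are highest in each Areg library and lie at -0.19 in control 3.

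On the length-scaled measure TPM (transcript counts corrected for length and scaled to a common total), every gene of the set was above the median tested gene. The median gene of the set had 86.6 TPM over all libraries, beside 17.3 TPM for the median tested gene, and 13 of the 42 were in the top 10% of tested genes. Npm1 was the most abundant, at 1256 ± 59.8 TPM with Areg and 997 ± 111 TPM in controls. Ncl followed, at 879 ± 28.0 TPM with Areg and 709 ± 99.1 TPM in controls. Nop58 had 685 ± 49.5 TPM with Areg and 473 ± 76.5 TPM in controls, so that its Areg level in TPM was within the spread of the control level of Ncl. A transcript of only 373 bases, Nop58-205, held 46.8% of the TPM of Nop58 with Areg. In CPM, which is not corrected for length, Nop58 had 314 with Areg, far below Ncl at 1423 in controls. The lowest were Noc4l, at 24.2 ± 3.34 TPM with Areg and 25.5 ± 3.31 TPM in controls, and Bysl, at 24.9 ± 0.862 TPM with Areg and 25.1 ± 0.606 TPM in controls. These last 2 did not differ beyond their spread. Summed over the set, the levels came to 7086 ± 164 TPM with Areg and 6047 ± 399 TPM in controls.

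GC content of the transcripts ran with the fold changes inside the set. Spearman's rho between log2 fold change and GC content was -0.73 over the 42 genes and -0.49 over all tested genes, a description over points that share the same 10 libraries. Without controls 3 and 4 the values were -0.49 for the set and -0.24 for all tested genes. The 22 genes that rose had a median GC content of 46.4%, and the 20 others 52.9%. Of the 21 genes with the lower GC content 16 rose, with a median log2 fold change of 0.26. Of the 21 with the higher content 6 rose, with a median of 0.09. All tested genes, split in the same way, had 13.3% called higher at lower GC (median 0.08) and 3.34% at higher GC (median -0.10). With the trend over all tested genes removed, the counts of the set were 15 and 14 and the medians 0.20 and 0.16. In that fit 7.26% and 8.28% of all tested genes were called higher. The 2 parts of the set then held nearly equal numbers of risers. The trend was fitted over all tested genes, so its absence over those genes follows by construction.

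**Figure D4:**
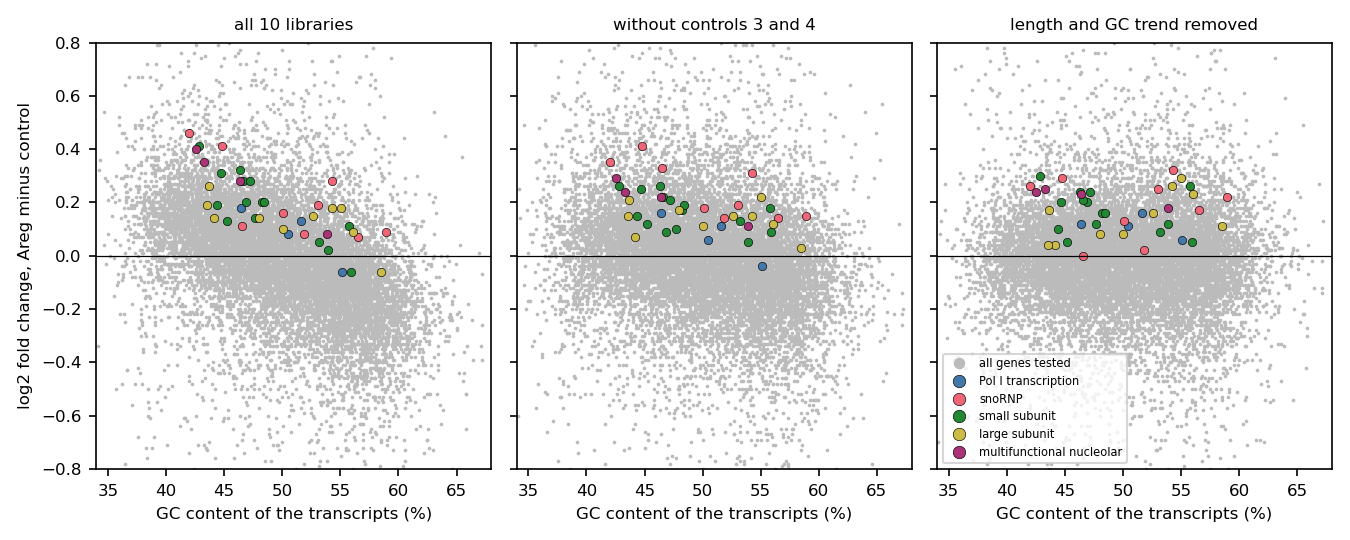
Log2 fold change (Areg over control) against GC content of the transcripts in percent, for the 42 genes of the set (coloured by step) and for all tested genes (grey), with all 10 libraries, without controls 3 and 4, and with the length and GC trend removed. The vertical axis stops at 0.8 in each direction, which leaves out 211 genes of the left panel and none of the set. The slope of the left panel, with rho of -0.73 for the set and -0.49 for all genes, is shallower in the middle and absent on the right. On the right its absence over all genes follows from how the trend was removed.

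At the level of single transcripts, 164 of the 246 annotated transcripts of the 42 genes could be tested. edgeR called 4 of them, all higher with Areg, beside 0.474% of 36269 tested transcripts called higher. The main coding transcript Dkc1-201 had 51.7 ± 3.03 TPM with Areg and 39.0 ± 4.22 TPM in controls, a log2 difference of 0.44 (edgeR adjusted p = 0.0282). Tsr1-201 had 71.9 ± 3.21 TPM with Areg and 57.9 ± 6.77 TPM in controls, at 0.35 (adjusted p = 0.0322). Ddx21-201 had 204 ± 4.56 TPM with Areg and 172 ± 15.7 TPM in controls, at 0.28 (adjusted p = 0.02). The remaining transcript, Nop58-205, is annotated as a target of nonsense-mediated decay. Its level was 321 ± 31.9 TPM with Areg and 199.5 ± 41.1 TPM in controls, at 0.74 (adjusted p = 0.0344). Nop58-205 held 46.8% of the TPM of Nop58 with Areg and 42.1% in controls. These are shares of TPM and not of counts, and the transcript has only 373 bases. Likewise Ncl-202, annotated as a retained-intron transcript, held 84.2 ± 0.968% of the TPM of Ncl with Areg and 82.7 ± 1.28% in controls. Both shares depend on how reads were divided between overlapping transcripts by estimation.

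Several of the genes carry snoRNA genes inside them, the small guides of the same modification particles. By the annotation 7 of the 42 genes hold at least 1 snoRNA gene on their own strand (16.7%), beside 219 of 13362 tested genes (1.64%). Nop56 holds 5, Nop58 4, Wdr43, Gnl3 and Ncl 3 each, Tsr1 2 and Dkc1 1. All 7 hosts rose, with a median log2 fold change of 0.31, and 15 of the other 35 genes rose, with a median of 0.14. Over all tested genes, 39 of the 219 hosts were called higher (17.8%), with a median of 0.05. The 7 hosts had a median GC content of 44.7%, lower than that of the set. The snoRNAs themselves lack a poly-A tail and were not measured.

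A wider list of 127 other ribosome biogenesis genes, all tested, gave the surroundings of the set. In it 50 genes rose (39.4%), beside 8.34% of all tested genes called higher. Of the 6285 tested genes at least as abundant as the least abundant gene of the set, 14.2% were called higher. The wider list also holds less abundant genes, such as Mphosph6, with means of 13.2 CPM with Areg and 9.76 CPM in controls. Of the list, another 77 missed the threshold and edgeR called none lower, with 1 gene lower at an unadjusted p under 0.05 (Pelp1). DESeq2 called 54 higher and 0 lower, beside 10% of all tested genes called higher. The median log2 fold change was 0.14. By role the risers were 4 of 12 in polymerase I transcription, 4 of 10 in snoRNP assembly, 17 of 43 on the small subunit, 20 of 48 on the large subunit and 5 of 14 in the exosome and in trimming of ribosomal RNA.

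Among the polymerase I genes of the wider list, Cd3eap, a subunit of the enzyme that works with Rrn3, had 34.8 ± 1.52 CPM with Areg and 25.6 ± 2.84 CPM in controls, a log2 difference of 0.44 (edgeR adjusted p = 0.000836). Taf1d, of the promoter selectivity factor, and Polr1d, a subunit shared with polymerase III, rose by 0.31 and 0.22. In snoRNP assembly, Znhit6 rose by 0.49, with 20.8 ± 1.82 CPM with Areg and 14.8 ± 1.31 CPM in controls. Ruvbl1, an ATPase of the same assembly machinery, rose by 0.34, and Snu13, a core protein of box C/D particles, by 0.27.

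Small-subunit genes of the wider list that rose included Dimt1, a methyltransferase of small-subunit RNA, at 0.38, and the processome proteins Mphosph10 and Utp11 at 0.34 and 0.30. On the large subunit, Rpf2, the partner of Rrs1, had 43.9 ± 2.01 CPM with Areg and 31.2 ± 4.45 CPM in controls, a log2 difference of 0.49 (edgeR adjusted p = 0.000847). Gnl2, a GTPase related to Gnl3, had 145 ± 6.67 CPM with Areg and 112 ± 7.64 CPM in controls, at 0.37 (edgeR adjusted p = 0.000338), and Brix1 rose by 0.38. In processing by nucleases, Mphosph6 and Dis3 of the exosome rose by 0.44 and 0.37, and the exonuclease Xrn2 by 0.19. Xrn2 was not called in 6 of the 22 alternatives: it came to 0.00 on log2(TPM + 1) values, to 0.03 with a transcript length offset (edgeR adjusted p = 0.853), and lost the call at 0.19 without Areg 2 or without Areg 5 (adjusted p = 0.0538 and 0.0507). With the GC trend removed Taf1d and Snu13 missed the threshold, at 0.13 and 0.14 (edgeR adjusted p = 0.0626 and 0.173). Smaller in that fit, but still called, were the rises of Rpf2 (0.30), Mphosph6 (0.28), Dimt1 (0.23) and Mphosph10 (0.21). The rises of Brix1, Utp11 and Xrn2 came to 0.20, 0.16 and 0.10 there, also called. Xrn2 had 0.12 without controls 3 and 4, still called, and 0.07 with both (edgeR adjusted p = 0.147). These 15 genes have the smallest p of their steps. Over the whole wider list, all Areg libraries were above all controls in 52 of the 127 genes (40.9%), beside 7.64% of all tested genes.

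Myc itself was measured in the same libraries. It gave 361, 373, 385, 413 and 366 CPM in Areg libraries, against 348, 367, 443, 481 and 376 CPM in controls. The groups overlapped, and controls 3 and 4 were the highest of all libraries. The log2 fold change was -0.09 (SE 0.08, edgeR adjusted p = 0.488). It was 0.06 without controls 3 and 4 (adjusted p = 0.358) and 0.01 with the GC trend removed (adjusted p = 0.929). Myc was called in 0 of 22 alternatives at this single time of 4 h.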

How the data were processed

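Poly-A RNA of 5 Areg and 5 control libraries was analysed. Per the file headers, each deposited file gives estimated counts for transcripts, beside TPM values that the authors' kallisto run scaled to length and to a fixed total. Tools in the submitters' processing notes are DESeq2, bcl2fastq 2.19 and kallisto 0.44.0, with the build GRCm38.p6, and strand handling is not given in the sources used here. Estimated counts of 116816 of 118489 transcripts were summed per gene with the GENCODE M21 annotation and rounded. The 1673 unmatched transcripts held at most 0.778% of counts.

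Genes passing filterByExpr (minimum count 10, total 15) were tested with edgeR 4.0.16 in R 4.3.3 (quasi-likelihood, robust, TMM, Benjamini-Hochberg, threshold 0.05). The biological coefficient of variation was 9.37%. Intervals are 95%, and CPM values are TMM-scaled. Chi-square values over their degrees of freedom were 3.78 to 50.7 between replicates, so none was counted as a duplicate. In simulated data 200 of 13362 genes were changed between Areg and control. Of 1.25-fold changes 37.8% were recovered, of 1.5-fold 69.7% and of 2-fold 91.9%, and 6.13% of calls were false. The changed genes were drawn from all tested genes and were fewer than the 2226 called in the data. These rates therefore need not hold for the set.

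The genes of the set, the wider list and the tests were chosen with earlier results of these data known. Genes shown by library were the 3 with the smallest p in each step, and those of the wider list likewise; others are named to account for the set. E-boxes after the start were printed after their genes' values were seen. Promoters came from RefSeq (GRCm38.p6). Alternatives used DESeq2 1.42.0, limma 3.58.1 on log2(TPM + 1) or log2(TPM + 0.1), other filters and offsets, a replicate block and left-out libraries.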

Additional observations from a re-analysis of the deposited data

Results flagged for a closer look

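In 3 of 84 groups of 5 libraries (3.57%), 1 library stood apart from the other 4 by Dixon's criterion, which chance alone meets in about 1 group in 20. Rrn3 was highest in Areg replicate 4, at 103.6 CPM, with the other Areg libraries at 95.3 to 97.4 CPM. Ddx21 was lowest in Areg replicate 1, at 563 CPM, with the other Areg libraries at 589 to 599 CPM. Rrp9 was lowest in control replicate 1, at 50.5 CPM, with the other controls at 61.8 to 65.0 CPM. Without control replicate 1 the log2 fold change of Rrp9 was 0.03, beside 0.09 with all libraries, and it was called in neither fit. Rrn3 and Ddx21 kept their calls when any 1 library was left out.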

How the results depend on the processing

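Over 22 alternatives, 818 of 924 gene-by-alternative results stayed on the same side of the threshold, 75 lost and 31 gained a call, and 0 called genes changed direction. Nop58, Nhp2, Npm1, Ncl and Ddx21 were called in all 22. limma on log2(TPM + 1) and log2(TPM + 0.1) gave 6 and 7 of the 42 genes higher, 856 and 868 genes in all (37.6% and 37.4% of them higher, against 50.04% in edgeR's test of the counts), and 14 and 15 genes of the wider list higher. A transcript length offset gave 16 of the 42 genes, 1149 genes in all (617 of them higher) and 29 of the wider list. The cause of these losses was not tested. With no filter 58.3% of calls were higher. Leaving out 1 library gave 16 to 23 of the 42 genes and 39 to 50 of the wider list. It gave 1364 (without Areg 2) to 2314 genes in all, with 686 to 1181 higher. With the GC trend removed 1 gene of the wider list was lower, Riok3 at -0.13 (edgeR adjusted p = 0.0117), and without controls 3 and 4 as well, 2 were, Riok3 at -0.12 and Znrd1 at -0.28. That fit gave 26 of the 42 genes higher, beside 1008 of 13362 tested genes. The replicate number as a block gave 21 of the 42 genes and 2357 genes in all, 1208 of them higher. Same-numbered libraries deviated together with correlations of -0.0564 to 0.19, and 2 of 5 numbers correlated best with themselves. With only 5 numbers this cannot show whether same-numbered libraries share a mouse or a culture, which the labels do not state. The block ended the call of Heatr1 (edgeR adjusted p = 0.0649). Counts with near-identical pseudogenes added, and the fits with controls 3 and 4 left out together with the GC trend, were added after seeing the data. An alternative that pools genes annotated by name as pseudogenes was not run, since the annotation holds no such names. At this depth small changes were often missed in the simulated data.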
